A study of Oryza sativa with 6 samples.

Results

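The common symbiosis pathway is the set of root proteins that plants need to let arbuscular mycorrhizal fungi in. Of 36960 features in the rice (Oryza sativa) root table, 10 were taken by their locus identifiers: the receptor genes OsCERK1, D14L and SYMRK, the ion channel genes CASTOR and POLLUX, the calcium-decoding kinase gene DMI3 (also called CCaMK), the transcription factor genes IPD3 (also called CYCLOPS), NSP1 and NSP2, and the transporter gene STR2. All 10 carried their gene name in the deposited table, had counts in every library and were tested. RNA was sequenced from roots of 3 wild-type (WT) samples and 3 samples of the mutant line mads61-3. OsMADS61, the gene mutated in this single line, codes for a transcription factor of the MADS-box family. Seedlings of both groups grew in tanks of IRRI nutrient solution at pH 5.5 with nitrate at 2.5 mM, without a fungal partner, and the study was made to learn what OsMADS61 does for nitrate transport without symbiosis. No label states that the replicates are separate tanks or plants. The p-values therefore cover only the spread between these samples, and that spread may be technical. In bulk tissue, fewer cells of a type and less RNA per cell cannot be told apart.

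In this pathway, receptors at the cell surface and in the cytoplasm sense fungal chitin oligomers and a karrikin-like signal. Cation channels of the nuclear envelope then drive repeated rises of calcium in the nucleus, which DMI3 reads and passes on by phosphorylating IPD3. IPD3 and GRAS-domain factors such as NSP1 and NSP2 switch on genes for fungal entry and for arbuscules, the branched fungal structures inside root cells where nutrients are exchanged. Rice mutants of DMI3, IPD3 or CASTOR are not properly colonised.

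The mads61-3 libraries had more transcript of the kinase gene DMI3 than the libraries labelled WT, by 3.42-fold (95% interval 2.17 to 5.40). DMI3 was the only one of the 10 genes that passed the test. With each library left out in turn, it passed in 1 of 6 fits. The library labelled WT replicate 3 had no more OsMADS61 transcript than the mutant ones, while its DMI3 was as low as in the other WT libraries. The next steps of the pathway, IPD3 and NSP1, were also higher in every mutant library than in every library labelled WT, with fold changes of 3.35 and 7.95 that did not pass. NSP2, of the same step as NSP1, had a fold change of 2.95 with groups that overlapped (edgeR, adjusted p = 0.478). The receptor genes OsCERK1, D14L and SYMRK and the channel genes CASTOR and POLLUX had fold changes between 1.01 and 1.29, and the transporter gene STR2 had one of 0.738. By edgeR's quasi-likelihood test, with p-values adjusted over all 25531 tested features and a threshold of 0.05, 1 of 10 members was higher and 0 were lower. Over all tested features 0.325% were called higher and 0.924% lower, 1.25% in all. At an unadjusted p under 0.05, 3 members were higher and 0 were lower, against 7.86% and 8.68% of all features. DESeq2 called 3 members higher (DMI3, IPD3 and NSP1) and 0 lower, against 4.38% and 5.38% of all features, while limma-voom called 0 members and 1.02% of all features. The members' median log2 fold change was 0.31, and that of all tested features was -0.04. Because the members were chosen with earlier results of these data known, these comparisons with all features are descriptive only.

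**Figure D1:**
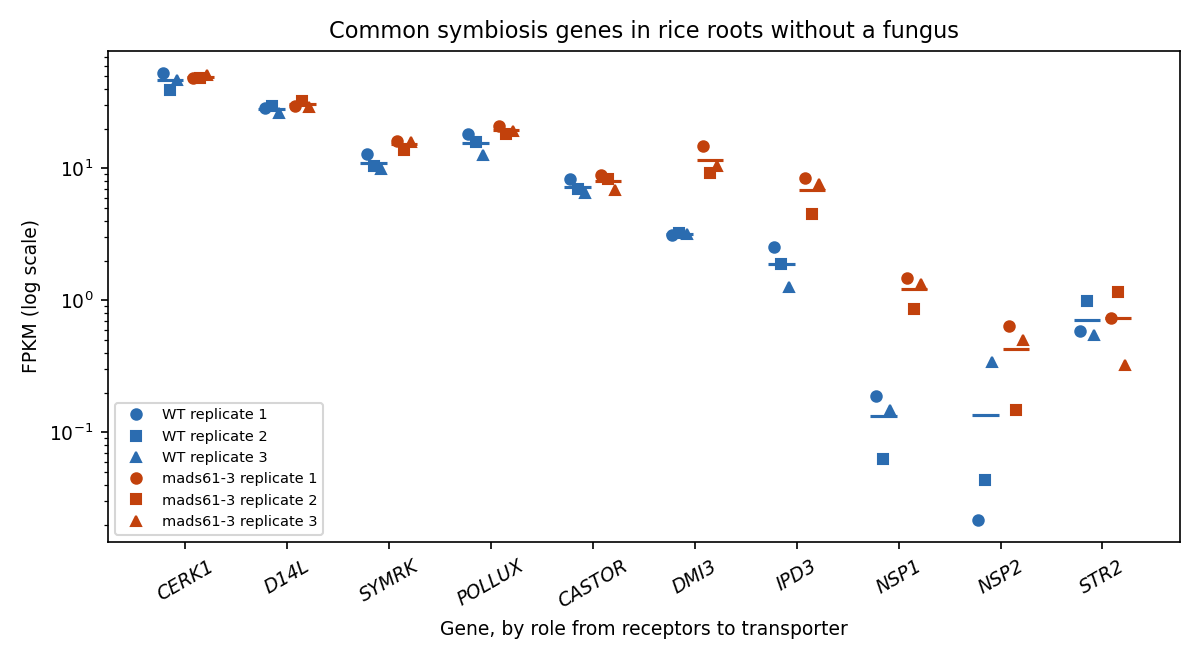
Deposited FPKM (log axis) of the 10 common symbiosis genes in each library, with WT in blue, mads61-3 in orange, 1 symbol per replicate and a line at each group mean (n = 3). The mutant points of DMI3, IPD3 and NSP1 lie well above all WT points and those of SYMRK and POLLUX just above, while the groups of OsCERK1, D14L, CASTOR, NSP2 and STR2 overlap.

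Totals ran from 24145708 to 34179150 counts per library, so that 3 counts, taken as the floor, stood for 0.0875 to 0.131 CPM (read counts relative to the library size, scaled by TMM). OsMADS61 (Os04g0461300), read first as the check of the labels, stood at 551.6 CPM in WT replicate 1 and 573 in WT replicate 2. The library labelled WT replicate 3 had only 2.38 CPM, and mutant replicates 1 to 3 had 6.24, 2.41 and 4.63. Its log2 fold change was -6.40 (SE 1.71, edgeR, adjusted p = 0.129). That library is counted as WT below, and DMI3 is also given without it. OsMADS26 (Os08g0112700), the other regulator of the series title, had 71.6, 85.7 and 40.7 CPM in the WT libraries and 7.20, 10.1 and 26.1 in the mutant ones (log2 -2.19, SE 0.54, edgeR, adjusted p = 0.11). Over all features edgeR called 83 higher and 236 lower. Leaving out WT replicate 2 gave 7 and 100, and leaving out the library labelled WT replicate 3 gave 195 and 529. Without WT replicate 1 they were 228 and 435, and without mutant replicate 2 they were 9 and 5. Without mutant replicate 1 or 3 edgeR called 0 features, with 2641 and 2608 at an unadjusted p under 0.05.

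Per length of transcript, the pathway was unevenly present in WT roots. OsCERK1 led with 46.5 ± 6.60 FPKM (fragments relative to transcript length and library depth, mean ± SD, n = 3), followed by D14L with 28.2 ± 1.69, POLLUX with 15.6 ± 2.72 and SYMRK with 11.0 ± 1.62. CASTOR stood at 7.28 ± 0.958 FPKM, DMI3 at 3.18 ± 0.0657, IPD3 at 1.90 ± 0.632 and STR2 at 0.710 ± 0.248. NSP2 with 0.135 ± 0.178 and NSP1 with 0.134 ± 0.0649 FPKM were lowest. Neighbours in this order did not overlap between libraries, except POLLUX with SYMRK and NSP2 with NSP1. In the mutant OsCERK1 (49.3 ± 1.64), D14L (30.6 ± 1.70), POLLUX (19.5 ± 1.408) and SYMRK (15.2 ± 1.29) kept the same order. DMI3, at 11.5 ± 2.89 FPKM, stood above CASTOR at 8.01 ± 1.06 there, with every mutant library of DMI3 above every one of CASTOR, whereas in WT every library of DMI3 was below every one of CASTOR. IPD3 reached 6.85 ± 2.09 FPKM, overlapping CASTOR, and NSP1 reached 1.22 ± 0.327, overlapping STR2 at 0.741 ± 0.422. NSP2 came last at 0.432 ± 0.254 FPKM and overlapped STR2.

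None of the receptor genes passed the test. OsCERK1 (Os08g0538300, chromosome 8) encodes a LysM receptor kinase that takes part in chitin-triggered immunity and in the response to mycorrhizal signals. WT replicates 1 to 3 stood at 125, 78.1 and 97.4 CPM, the mutant replicates at 99.8, 92.3 and 111.6. All mutant values lay inside the WT range, and the log2 fold change was 0.02 (95% interval -0.54 to 0.57, edgeR, adjusted p = 0.981). D14L (Os03g0437600, chromosome 3) encodes the hydrolase-type karrikin receptor that rice needs to respond to mycorrhizal fungi. Its values were 39.0, 32.8 and 30.2 CPM in the WT libraries and 34.5, 33.9 and 35.6 in the mutant ones, the narrowest mutant spread relative to the mean among the members (34.7 ± 0.829 CPM). Its log2 fold change was 0.03 (95% interval -0.41 to 0.47, edgeR, adjusted p = 0.957). SYMRK (Os07g0568100, chromosome 7), a receptor-like kinase gene upstream of the calcium signal, had 41.1, 27.01 and 26.3 CPM in the WT libraries and 43.5, 33.6 and 44.3 in the mutant ones. WT replicate 1 lay within the mutant range. The log2 fold change was 0.36 (95% interval -0.23 to 0.96, edgeR, adjusted p = 0.527).

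Neither ion channel gene passed it. CASTOR (Os03g0843600, chromosome 3) had 33.5, 22.9 and 21.8 CPM in the WT libraries and 30.1, 25.6 and 24.1 in the mutant ones, with the mutants inside the WT range. Its log2 fold change was 0.03 (95% interval -0.54 to 0.60, edgeR, adjusted p = 0.967). POLLUX (Os01g0870100, chromosome 1), for the related channel of the nuclear envelope, had 70.5, 51.6 and 42.5 CPM in the WT libraries and 70.5, 57.3 and 69.4 in the mutant ones. WT replicate 1 stood level with the highest mutant, and the log2 fold change was 0.26 (95% interval -0.31 to 0.83, edgeR, adjusted p = 0.654). As fold changes, the 95% intervals ran from 0.687 to 1.49 for OsCERK1, from 0.752 to 1.38 for D14L and from 0.688 to 1.51 for CASTOR. In the deposited FPKM, SYMRK (9.88 to 12.9 in WT, 13.8 to 16.2 in the mutant) and POLLUX (12.7 to 18.1 and 18.2 to 21.0) did not overlap between groups, unlike in CPM. The FPKM of 5 members lay higher in every mutant library, against 16.5% of all features.

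DMI3 (Os05g0489900, chromosome 5) encodes the calcium- and calmodulin-dependent kinase at the centre of the pathway, which binds calcium directly and through calmodulin. WT replicates 1 to 3 held 176, 166 and 183 of its reads, mutant replicates 1 to 3 held 1056, 531 and 621. In CPM these were 7.70, 6.57 and 6.51 in the WT libraries and 30.8, 17.5 and 22.8 in the mutant ones. The WT libraries, the one low in OsMADS61 included, lay close together (6.93 ± 0.671 CPM, SD, n = 3), and the lowest mutant library was far above them (mutant 23.7 ± 6.68 CPM). The log2 fold change was 1.77 (SE 0.28, edgeR, adjusted p = 0.0416), and 3.27% of all tested features had a larger one. In 3 members (DMI3, IPD3 and NSP1) all mutant libraries lay above all libraries labelled WT in CPM, as they did in 11.4% of tested features, and 0 members lay the other way, against 11.3%.

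The call of DMI3 lay close to the threshold, while its size varied little. Without WT replicate 1 it was called (log2 1.86, edgeR, adjusted p = 0.0427). Without WT replicate 2 (log2 1.74, edgeR, adjusted p = 0.126) or the library labelled WT replicate 3 (log2 1.73, edgeR, adjusted p = 0.0505) it was not. Nor was it without mutant replicate 1 (log2 1.59), 2 (log2 1.95) or 3 (log2 1.81), with edgeR adjusted p of 0.182, 0.0606 and 0.191. Limma-voom gave log2 1.75 with an adjusted p of 0.0518.

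IPD3 (Os06g0115600, chromosome 6) encodes the transcription factor that DMI3 phosphorylates. Its read counts were 129, 87 and 67 in the WT libraries and 544, 232 and 405 in the mutant ones, or 5.65, 3.45 and 2.38 CPM and 15.9, 7.66 and 14.9 CPM. All mutant libraries were higher, with mutant replicate 2 nearest to WT replicate 1. The log2 fold change was 1.74 (SE 0.44, 95% interval 0.70 to 2.79, edgeR, adjusted p = 0.117). It was about as large as that of DMI3 but with more spread relative to the mean in both groups. In DESeq2 the log2 fold change of IPD3 was 1.76 (adjusted p = 0.00349), the only 1 of 16 alternative settings that called it. Limma-voom gave log2 1.78 with an adjusted p of 0.126.

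NSP1 (Os03g0408600, chromosome 3) and NSP2 (Os03g0263300, chromosome 3) encode GRAS-domain transcription factors that act together, and in Medicago and rice they are needed for normal strigolactone synthesis. NSP1 had read counts of 9, 3 and 7 in the WT libraries and 85, 40 and 63 in the mutant ones, or 0.394, 0.119 and 0.249 CPM and 2.48, 1.32 and 2.31 CPM. WT replicate 2 sat at the floor of 3 counts, and all mutant libraries were well above the WT ones. The log2 fold change was 2.99 (SE 0.58, 95% interval 1.62 to 4.36), just outside the threshold by edgeR (adjusted p = 0.0637) and past it in DESeq2 (log2 3.03, adjusted p = 0.000168). NSP1 was called in 4 of 16 alternative settings, and in 0 of the 6 that left out 1 library. The group totals of 19 and 188 counts gave a depth-scaled ratio of 8.21, with an exact 95% interval of 5.11 to 13.9 that covers counting error only. Of all tested features, 1.03% had a larger log2 fold change.

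NSP2 did not follow NSP1 in the library labelled WT replicate 3. Its read counts were 2, 2 and 18 in the WT libraries and 41, 8 and 27 in the mutant ones, or 0.0876, 0.0792 and 0.641 CPM and 1.195, 0.264 and 0.991 CPM. The library labelled WT replicate 3 was above mutant replicate 2, so the groups overlapped. The log2 fold change was 1.56 (SE 0.96, 95% interval -0.72 to 3.84, edgeR, adjusted p = 0.478), and 3.23 without that library (edgeR, adjusted p = 0.144). The WT side of the latter fit, WT replicates 1 and 2, lay under the floor of 3 counts. From 22 and 76 counts the depth-scaled ratio was 2.87 (1.76 to 4.84, counting error only).

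**Figure D2:**
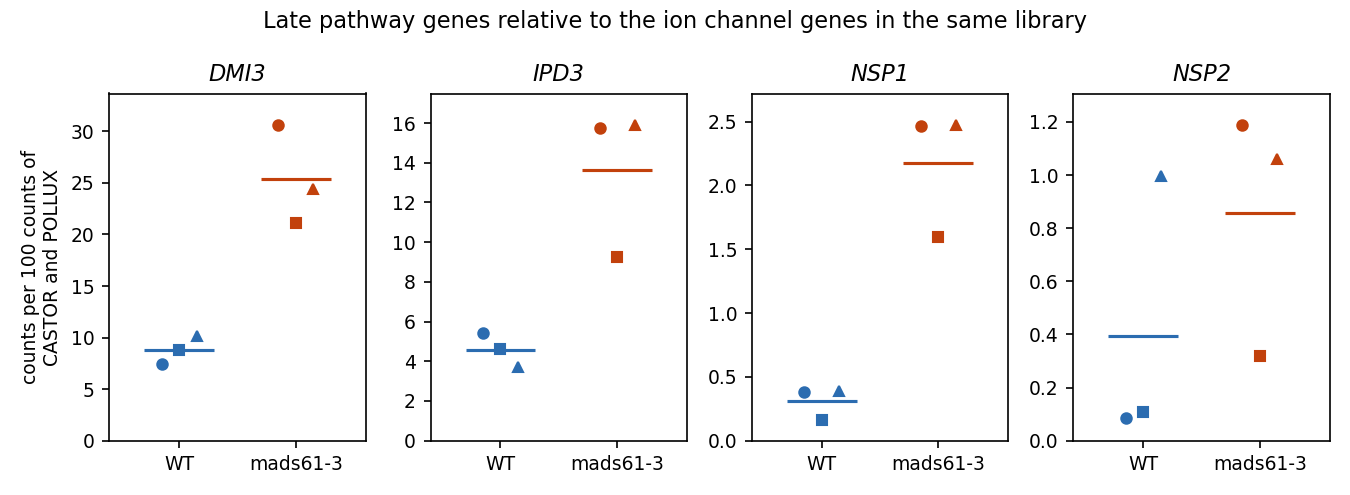
Read counts of DMI3, IPD3, NSP1 and NSP2 per 100 counts of CASTOR and POLLUX in the same library (linear axes, 1 panel per gene with its own scale, circles, squares and triangles for replicates 1 to 3, lines at group means, n = 3). DMI3, IPD3 and NSP1 do not overlap between groups; the third WT point of NSP2 lies among the mutants.

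Counts were also set against those of the channel genes of the same library, which needs no scaling between libraries. This reference was picked after its small fold changes were seen, so the ratios restate the differences above and add no support to them. For each 100 counts of CASTOR and POLLUX together, DMI3 had 7.40, 8.83 and 10.1 counts in the WT libraries and 30.6, 21.1 and 24.4 in the mutant ones, a ratio of means of 2.89. IPD3 had 5.43, 4.63 and 3.71 in the WT libraries and 15.8, 9.24 and 15.9 in the mutant ones, a ratio of 2.97. NSP1 had 0.379, 0.159 and 0.387 in the WT libraries and 2.46, 1.59 and 2.47 in the mutant ones, a ratio of 7.06. Mutant replicate 2 was lowest of the mutants for each of these genes. NSP2 overlapped, with 0.0841, 0.106 and 0.996 in the WT libraries and 1.19, 0.318 and 1.06 in the mutant ones.

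STR2 (Os07g0191600, chromosome 7) encodes an ABCG transporter that works with its partner STR1 at the membrane around arbuscules. It had read counts of 44, 65 and 35 in the WT libraries and 52, 62 and 18 in the mutant ones, or 1.93, 2.57 and 1.25 CPM and 1.52, 2.05 and 0.661 CPM. The groups overlapped, mutant replicate 3 being lowest. The log2 fold change of -0.44 (95% interval -1.70 to 0.82, edgeR, adjusted p = 0.738) was the only negative one among the 10 members in this fit, and its sign turned on the log2(FPKM + 1) scale (0.01).

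**Figure D3:**
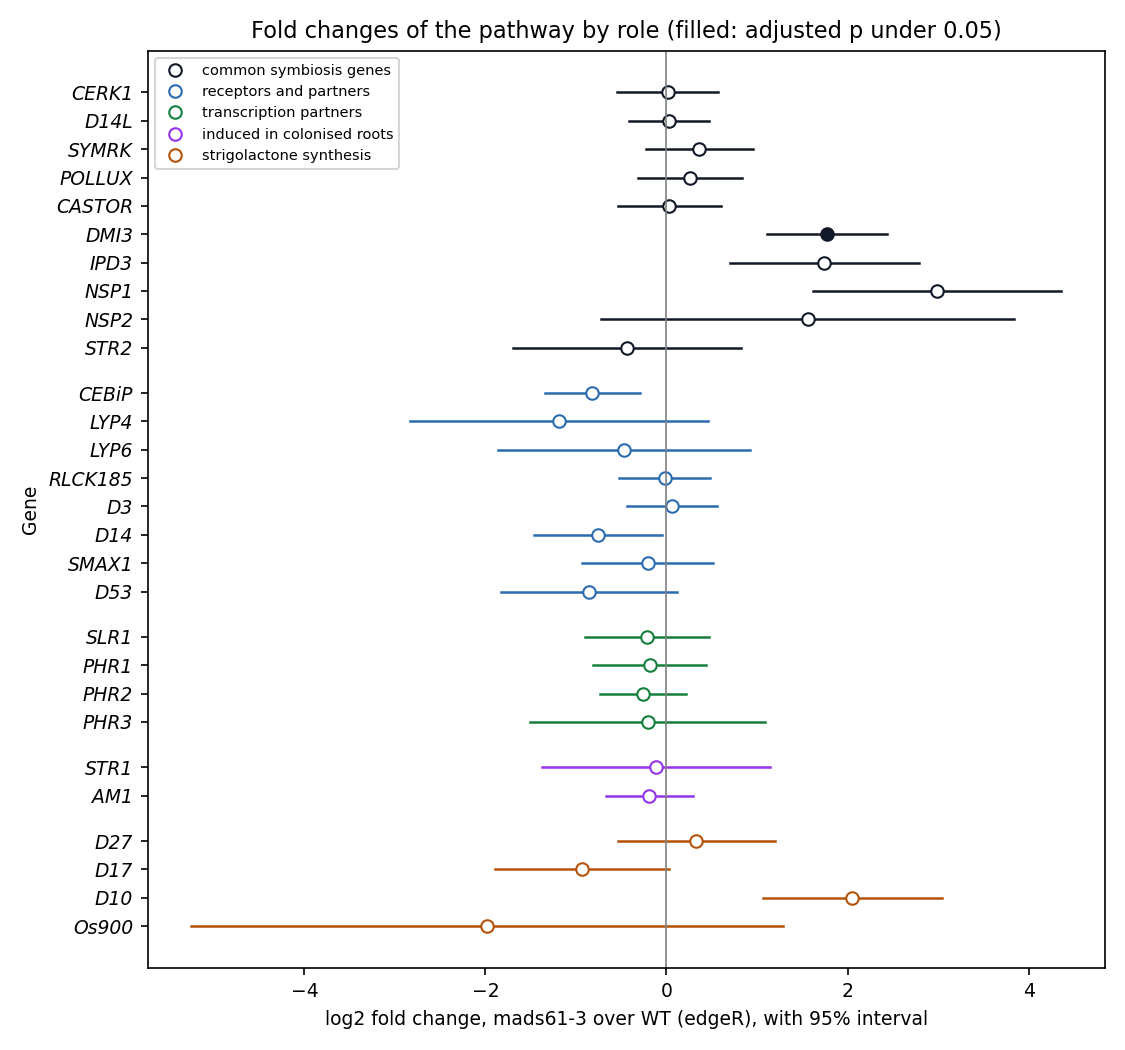
Log2 fold changes of mads61-3 over WT with 95% intervals (edgeR, 3 libraries per group) for the 10 members in black and the tested genes of 4 related lists in colour, with filled points where the adjusted p was under 0.05. DMI3 alone is filled; the intervals of IPD3, NSP1 and D10 lie above 0 and those of CEBiP and D14 below it.

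The partners of these receptors showed no called change. Of 8 tested genes for receptors and partners edgeR called 0, while 2 were lower and 0 higher before adjustment of p (8.68% and 7.86% of all features) and DESeq2 called 1 lower (5.38% of all features). Their median log2 fold change was -0.61. The most abundant per length were D14, the strigolactone receptor gene (75.8 ± 21.0 FPKM in WT and 49.0 ± 1.81 in the mutant, log2 -0.75, edgeR, adjusted p = 0.274), and OsRLCK185, for a kinase that acts below OsCERK1 (27.1 ± 3.64 and 28.5 ± 2.78 FPKM, log2 -0.02, edgeR, adjusted p = 0.973). CEBiP, the chitin-binding partner of OsCERK1, named here after its values were seen, had 31.6, 34.1 and 42.6 CPM in the WT libraries and 20.2, 23.7 and 17.4 in the mutant ones. All its mutant libraries were lower (log2 -0.82, SE 0.22, edgeR, adjusted p = 0.131; DESeq2, adjusted p = 0.0171). The other tested genes of this list were LYP4 and LYP6, for LysM proteins (log2 -1.19 and -0.47), D3, for the F-box partner of D14 and D14L (0.06), and SMAX1 (-0.21) and D53 (-0.86), for repressors that D3 marks for breakdown.

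Among 4 transcription partners edgeR called 0, with 0 at an unadjusted p under 0.05 and 0 by DESeq2, and their median log2 fold change was -0.21. PHR2, a phosphate starvation regulator that also acts on symbiosis genes in rice, had 128, 115 and 106 CPM in the WT libraries and 102, 84.6 and 106 in the mutant ones (log2 -0.26, edgeR, adjusted p = 0.579). PHR3 ranged from 27.8 to 136 CPM in WT and from 51.5 to 79.3 in the mutant (log2 -0.21, edgeR, adjusted p = 0.891). The DELLA gene SLR1 and PHR1 had log2 fold changes of -0.22 and -0.19. The nucleoporin genes NUP85 and NUP133, whose Lotus counterparts belong to the same pathway and which were added after their values were seen, had log2 fold changes of 0.31 (edgeR, adjusted p = 0.459) and 0.10 (edgeR, adjusted p = 0.849).

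Genes that are switched on in colonised roots had few or no counts, apart from AM1. AM3 had 0 counts in every library, PT13, for a phosphate transporter, had 2 counts in WT replicate 2 and 0 elsewhere, and PT11, for the arbuscule phosphate transporter, had 19 counts in mutant replicate 3 and 0 in the other libraries. A count of 0 allows up to 3 counts per library. OsRAM1 encodes a GRAS factor whose Lotus counterpart is switched on by CYCLOPS. All libraries labelled WT held 0 counts of OsRAM1, while mutant replicates 1 to 3 held 4, 2 and 7. It was too low to be tested, as were AM3, PT11 and PT13. STR1, listed as ABCG21, had 33, 20 and 18 counts in the WT libraries and 19, 37 and 24 in the mutant ones (log2 -0.11, edgeR, adjusted p = 0.942). Per length it stood at 0.297 ± 0.0979 FPKM in WT, below its partner STR2 in every WT library. AM1 had a mean of 98.2 ± 16.6 CPM over the WT libraries and of 86.1 ± 3.27 over the mutant ones (log2 -0.19, edgeR, adjusted p = 0.702). Of the 2 tested genes of this list 0 were called by edgeR, 0 passed an unadjusted p under 0.05 and 0 were called by DESeq2. AMT3;1, AM14, RAM2 and NPF4.5 were not analysed here.

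Of 4 tested strigolactone synthesis genes edgeR called 0, while 1 was higher and 0 lower before adjustment of p (7.86% and 8.68% of all features), and DESeq2 called 1 higher (4.38% of all features). In each case it was D10, a carotenoid cleavage dioxygenase gene named after its values were seen, at 0.700, 0.752 and 0.391 CPM in the WT libraries and 2.68, 2.67 and 2.31 in the mutant ones. All mutant libraries were higher (log2 2.05, SE 0.42, edgeR, adjusted p = 0.0697; DESeq2, adjusted p = 0.00022). D27, the isomerase gene whose transcription in Medicago depends on NSP1 and NSP2, had 10.2, 10.9 and 4.52 CPM in the WT libraries and 11.5, 10.7 and 10.02 in the mutant ones (log2 0.33, edgeR, adjusted p = 0.713). D17, listed as HTD1, had 5.95, 4.51 and 3.20 CPM in the WT libraries and 1.95, 1.85 and 3.34 in the mutant ones (log2 -0.94, edgeR, adjusted p = 0.312). Os900 (log2 -1.98) rested on 358 counts in the library labelled WT replicate 3, against 3 to 44 elsewhere, and Os1400 had 21 counts in that library alone and was not tested.

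**Figure D4:**
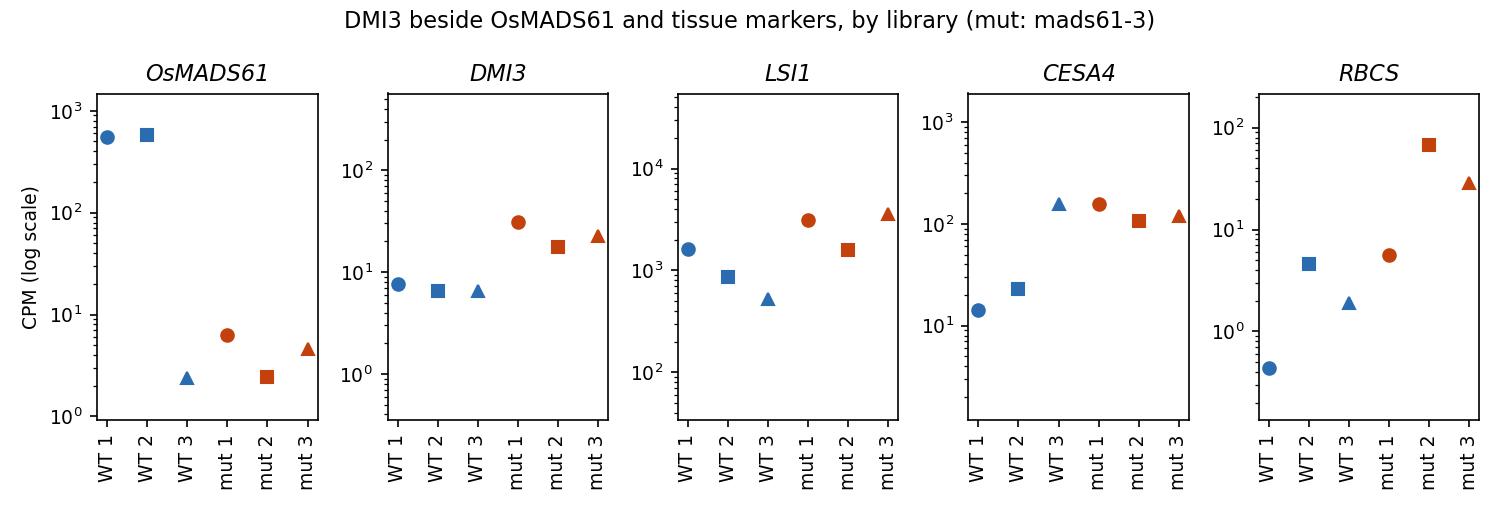
CPM (log axes that span the same number of decades) of OsMADS61, DMI3, the root gene LSI1, the cellulose synthase gene CESA4 and the leaf gene RBCS in each library. The library labelled WT 3 lies with the mutants for OsMADS61 and CESA4 and with the WT libraries for DMI3. For LSI1 it is the lowest library.

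Markers of tissues differed between the libraries and are given beside DMI3, IPD3 and NSP1. All 5 root markers were detected in all libraries, with a summed level of 1665 to 3114 CPM in WT and 3026 to 7094 in the mutant. In most libraries 2 silicon transporter genes, LSI1 and LSI2, made up most of this sum. In the library labelled WT replicate 3, RCc3 was its largest part. LSI1, of exodermis and endodermis, stood at 1613, 868.6 and 525 CPM in the WT libraries and 3109, 1580 and 3550 in the mutant ones (log2 1.45, edgeR, adjusted p = 0.24), and LSI2 had a log2 fold change of 1.70 (edgeR, adjusted p = 0.264). RCc3 went the other way, with 28.5, 215.7 and 940 CPM in the WT libraries and 68.5, 77.0 and 56.0 in the mutant ones (log2 -2.56, edgeR, adjusted p = 0.294), WT replicate 1 being lowest. SHR1 and SCR1, for GRAS factors of root patterning, had log2 fold changes of 0.14 and -0.16. WT replicate 1 and mutant replicate 2 were close in LSI1 (1613 and 1580 CPM) and in LSI2, SHR1 and SCR1. They were apart in RCc3 (28.5 and 77.0 CPM), in CESA4 (14.4 and 107) and in the stele gene PHO1;2 (1179 and 362). The leaf gene RBCS was at 0.438 CPM in WT replicate 1 and at 67.1 in mutant replicate 2. This pair was thus not matched in tissue markers. DMI3 stood at 7.70 and 17.5 CPM in them, IPD3 at 5.65 and 7.66 and NSP1 at 0.394 and 1.32. All 4 stele and xylem markers were detected, with sums of 808 to 1209 CPM in WT and 543 to 728 in the mutant. The lower mutant sum came from PHO1;2, for a phosphate exporter, at 1179, 789 and 460 CPM in the WT libraries and 432, 362 and 322 in the mutant ones (log2 -1.12, edgeR, adjusted p = 0.219). The other 3 markers, CESA4, CESA7 and CESA9, had positive log2 fold changes of 0.97, 0.59 and 0.61, with groups that overlapped. Without the library labelled WT replicate 3 these were 2.77, 2.31 and 2.48 (edgeR, adjusted p = 0.0188, 0.0191 and 0.042). CESA4, for cellulose of secondary walls, stood at 14.4 CPM in WT replicate 1 and 23.1 in WT replicate 2. It reached 157 CPM in the library labelled WT replicate 3 and 156, 107 and 120 in the mutant libraries. That library was level with the mutants in CESA4 and OsMADS61. It was below every mutant library in LSI1 and LSI2 and above every one in RCc3. It had 6.51 CPM of DMI3, 2.38 of IPD3 and 0.249 of NSP1, below every mutant library for each of the 3. Its NSP2 was not below every mutant library.

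The 5 shoot markers summed to 1.44 to 16.7 CPM in WT and 10.6 to 129 in the mutant. All 5 had positive log2 fold changes, from 0.88 to 3.87, and edgeR called 0 of them. RCA was at 0 in WT replicate 1, and CAB2R and CAB in the library labelled WT replicate 3. RBCS, for the small subunit of Rubisco, had 0.438, 4.59 and 1.89 CPM in the WT libraries and 5.57, 67.1 and 28.9 in the mutant ones. All its mutant libraries were higher. Among the mutants RBCS was highest in replicate 2, and DMI3, IPD3, NSP1 and NSP2 were each lowest there. What part these markers had in the result was not tested.

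**Figure D5:**
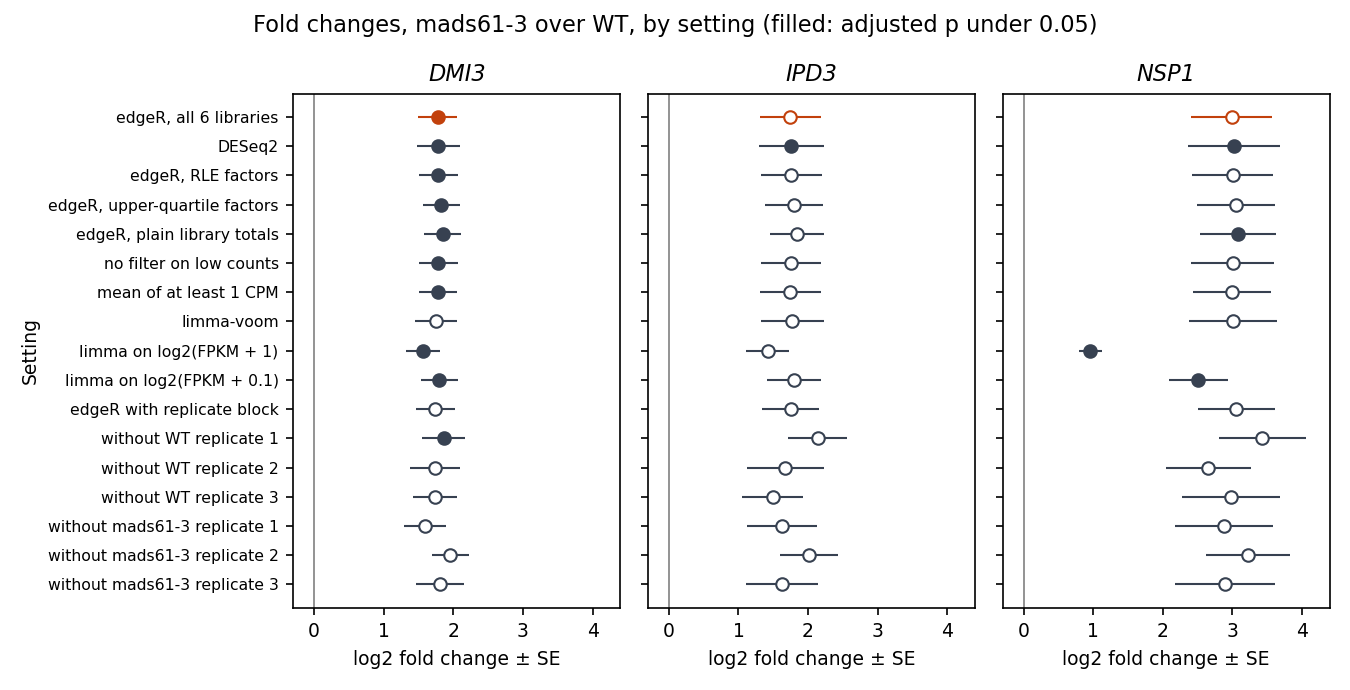
Log2 fold changes ± SE of DMI3, IPD3 and NSP1, mads61-3 over WT, in the fit of all 6 libraries (orange) and under 16 alternatives (grey), with filled points where the adjusted p was under 0.05. All points lie above 0, from 1.56 to 1.95 for DMI3, from 1.42 to 2.14 for IPD3 and from 0.96 to 3.43 for NSP1, while the calls change between settings.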

How the data were processed

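The table of read counts was deposited as whole, unnormalised counts per feature, and the second table holds FPKM, which the authors scaled to feature length and library depth. The submitters' processing notes name HISAT2 2.0.5, SAMtools 0.1.18, StringTie 1.3.3, Picard 1.41, CASAVA 1.8.2 and FastQC 0.11.9. They also name GRCh38, which is a human build and cannot hold these rice loci. The rice build, counter and strand setting were not given in the sources, so reads from an overlapping or antisense gene cannot be separated, no coordinates are given, and chromosomes come from the locus identifiers. The mutant columns carry the gene and a number, taken as the replicate number of line mads61-3.

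Counts were tested in R 4.3.3 with edgeR 4.0.16 (quasi-likelihood F-test, two-sided, TMM, robust, group as the only term, minimum count 10, minimum total 15, Benjamini-Hochberg over 25531 features), on the whole table and checked on simulated data. In the simulated data edgeR recovered 43 of 100 changes of 4-fold and 93 of 100 of 16-fold. It called 7 of 24863 unchanged features. A member that was not called is therefore not shown to be unchanged. SE was taken as |log2 fold change| / sqrt(F). DESeq2 1.42.0, limma 3.58.1 (voom, and on log2(FPKM + 1) and log2(FPKM + 0.1)), other scalings, filters, a replicate block and leaving out each library were alternatives. An exact test of 3 against 3 libraries cannot give a p below 0.1 and was not used. Deviations of same-numbered libraries from their group means had r of 0.112, 0.193 and -0.177 over features. Those of differently numbered libraries ran from -0.273 to 0.242. The numbers thus gave no sign of pairing, but so few values cannot exclude a shared tank or batch. Named were all members, OsMADS61, OsMADS26, from each list the called genes and the 2 most abundant, and all genes of colonised roots. Members and lists were chosen with earlier results of these data known, and loci outside the members were written from memory and checked against the deposited symbols. SMAX1 (Os08g0250900) carries no symbol there.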

Additional observations from a re-analysis of the deposited data

How the results depend on the processing

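DMI3, IPD3, NSP1 and NSP2 kept positive log2 fold changes in all alternatives run. The number of members called higher was 3 in DESeq2, 2 with plain library totals (log2 3.08 for NSP1, adjusted p = 0.0476) and with limma on either FPKM scale, and 0 in limma-voom and with the replicate block, against 1; leaving out 1 library gave 0 to 1. The block gave DMI3 a log2 fold change of 1.74 (edgeR, adjusted p = 0.08). Over all features the calls higher and lower were 1116 and 1370 in DESeq2, 125 higher with upper-quartile factors, 139 higher with plain library totals, 203 higher with FPKM + 1, 247 and 377 with FPKM + 0.1 and 18 and 63 with the block, and 0 to 228 higher and 0 to 529 lower with 1 library left out. The share called lower was 74.0%, against 66.6% with plain totals, 61.2% and 60.4% on the FPKM scales and 55.1% in DESeq2. It was 77.8% with the block, 93.5% without WT replicate 2 and 35.7% of 14 calls without mutant replicate 2. Among receptors and partners DESeq2 called 1, and among strigolactone genes DESeq2 and limma with FPKM + 1 called 1 each. The cause of these shifts was not tested.

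Some of the genes whose fold changes were recomputed turned in sign, each of them not called in any setting run. With 1 library left out, log2 fold changes ran from -0.085 to 0.25 for CASTOR, -0.13 to 0.21 for OsCERK1, -0.049 to 0.14 for D14L, -0.16 to 0.14 for RLCK185, -0.59 to 0.62 for PHR3, -0.41 to 0.30 for STR1 -0.015 to 0.17 for NUP133, -0.035 to 0.18 for D3, -0.44 to 0.025 for SMAX1, -0.40 to 0.086 for SLR1, -0.40 to 0.019 for PHR1, -2.55 to 1.301 for Os900, -0.096 to 0.45 for SHR1 and -0.30 to 0.0081 for SCR1. RLCK185 was 0.041 with upper-quartile factors, 0.0753 with plain totals, and 0.0754 and 0.078 on the FPKM scales. PHR3 was 0.072 in limma-voom, 0.15 and 0.16 on the FPKM scales and 0.059 with the block. STR1 was 0.023 with plain totals and 0.00105 with FPKM + 1, where STR2 was 0.00715. D27 was -0.11 and -0.12 on the FPKM scales. Depth limits NSP1, NSP2, STR1 and STR2, whose libraries hold 2 to 85 counts.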
